A study of Mus musculus with 5 samples.

Results

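The genes described here are 33 genes of the unfolded protein response and of protein folding in the endoplasmic reticulum (ER), chosen by name as ER stress sensors, ER chaperones, disulfide-forming enzymes, ER-associated degradation factors and 2 channel subunits. All 33 were found by symbol among the 39179 genes of the count table, and 31 of them were among the 13000 genes with enough counts to be tested. RNA came from TER119-positive erythroid cells, sorted from the fetal liver of C57BL/6 mouse embryos at 14.5 days post conception. The 2 KO libraries came from Csnk2b fl/fl Vav+/Cre embryos and the 3 control libraries from Csnk2b+/+ Vav+/Cre embryos, all untreated, so that every library carries the Cre transgene. Cre was driven by the Vav1 promoter, which acts across blood-forming cells and not in erythroid cells alone. Csnk2b encodes the beta subunit of CK2, the one that regulates the kinase. The comparison asks how the ER folding programme stands in erythroid cells of embryos with this genotype, in which part of the Csnk2b transcript was still counted. The titles do not say whether a library is 1 embryo or a pool, so the p-values cover only the spread among these libraries, which may be partly technical.

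Proteins that enter the ER are folded there by chaperones and by enzymes that form disulfide bonds. When unfolded proteins build up, sensors in the ER membrane are activated: ATF6 is cut to release a transcription factor, IRE1 (encoded by Ern1) splices the Xbp1 mRNA, and PERK (encoded by Eif2ak3) phosphorylates the translation factor eIF2 alpha. ATF6 and spliced XBP1 switch on chaperone and degradation genes, whereas the PERK branch acts through the transcription factor ATF4, which other eIF2 alpha kinases also activate. Red cell precursors put much of their synthesis into cytosolic globin, but they also pass membrane proteins such as glycophorin A, band 3 and the transferrin receptor through the ER. Counts per gene cannot show Xbp1 splicing, ATF6 cleavage or PERK phosphorylation, so the values below are levels of mRNA.

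The promoter sequences are shown first because they carry the element by which this response is usually recognised. The ER stress response element (ERSE) is CCAAT, then 9 bases of any kind, then CCACG, and it binds NF-Y together with ATF6 or XBP1. RefSeq promoter windows (build GRCm38.p6, 250 bases before to 50 after the start site) were found for 28 of the 33 genes, and both strands were searched. An ERSE was present in 9 of these 28 genes (32.1%), against 13 of 9266 tested genes with a window (0.14%), a share that includes the 8 tested members with one. The element was first described in promoters of this gene family, so this share is not independent of the choice of genes. The 10 matches are given 5′ to 3′ on the strand that reads CCAAT first, with the fixed bases in capitals, to show how far the spacer varies around the 2 fixed blocks.
Hspa5: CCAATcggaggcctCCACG
Hsp90b1 (distal): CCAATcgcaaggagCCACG
Hsp90b1 (proximal): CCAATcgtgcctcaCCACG
Calr: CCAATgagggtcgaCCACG
Canx: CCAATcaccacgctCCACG
Creld2: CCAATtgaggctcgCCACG
Dnajc3: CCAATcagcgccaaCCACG
Pdia6: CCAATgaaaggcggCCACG
Syvn1: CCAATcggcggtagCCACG
Derl3: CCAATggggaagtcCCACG

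Herpud1 and Dnajb11 held the related ERSE-II (ATTGG, 1 base of any kind, CCACG), which was present in 8 of the 9266 tested genes (0.09%).
Herpud1: ATTGGgCCACG
Dnajb11: ATTGGcCCACG

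Hspa5, the best-studied gene of the set, and Pdia5, the only member past the threshold in the comparison below, are shown as whole windows. The Hspa5 window is chr2:34771840-34772139 on the plus strand, and capitals mark the 2 fixed blocks of its ERSE, which begins 65 bases before the start site.
Hspa5 promoter: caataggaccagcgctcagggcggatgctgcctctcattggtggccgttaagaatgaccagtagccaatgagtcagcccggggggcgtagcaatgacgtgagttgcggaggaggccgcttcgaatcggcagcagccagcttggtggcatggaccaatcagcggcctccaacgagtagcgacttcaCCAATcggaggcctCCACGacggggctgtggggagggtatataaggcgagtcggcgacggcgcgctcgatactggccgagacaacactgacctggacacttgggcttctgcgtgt
The Pdia5 window is chr16:35490824-35491123 on the minus strand, and capitals mark its single CCACG half-site, which lies on the opposite strand and so reads CGTGG.
Pdia5 promoter: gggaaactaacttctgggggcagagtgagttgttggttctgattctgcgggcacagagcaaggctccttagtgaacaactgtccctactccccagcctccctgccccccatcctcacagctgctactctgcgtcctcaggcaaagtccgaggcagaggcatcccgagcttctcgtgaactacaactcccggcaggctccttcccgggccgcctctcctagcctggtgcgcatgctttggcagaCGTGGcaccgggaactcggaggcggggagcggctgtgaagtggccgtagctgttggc

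A CCACG half-site, which every ERSE and ERSE-II also contains, was found in 23 of the 28 genes (82.1%) and in 52.8% of tested genes with a window. The UPRE core TGACGTGG, a site bound by XBP1 and ATF6, was in the windows of none of the 28 genes and in 1.0% of tested genes. Canx, Dnajb11 and Hspa5 held the shorter TGACGT, which every UPRE core contains and which was found in 13.6% of tested genes. A missing match says only that these letters are not in the window searched.

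**Figure D1:**
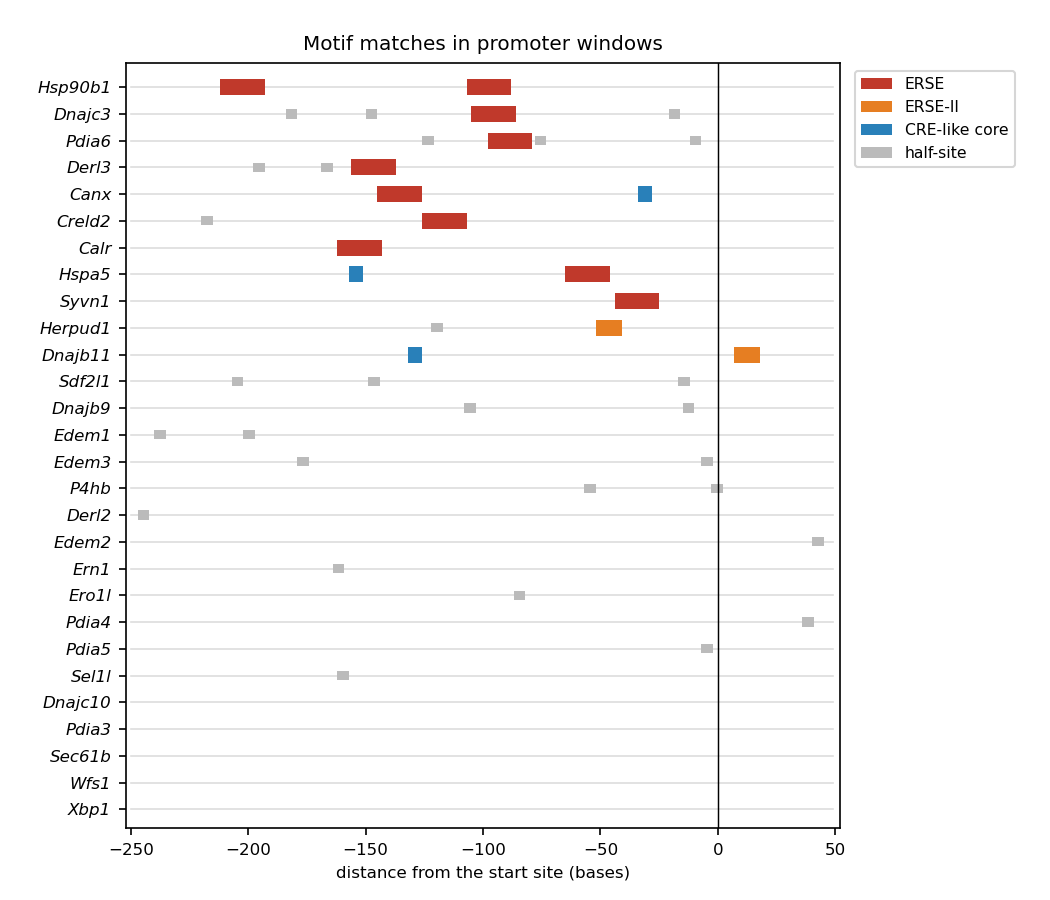
Motif matches in the promoter windows of the 28 genes with a window, by distance from the start site in bases (x axis); each row is a gene, and bars are matches on either strand, with both windows of Derl2 drawn on 1 row. ERSE matches lie between 212 bases before the start site in Hsp90b1 and 26 bases before it in Syvn1.

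Libraries held 13187094 to 15366021 counts. Csnk2b was at 112 and 95.6 CPM (counts scaled to a common library size after TMM adjustment) in KO replicates 1 and 2, against 186, 186 and 169 CPM in control replicates 1, 2 and 3, with a log2 fold change of -0.80 ± 0.09 (SE, edgeR adjusted p = 0.00177). The fitted KO level was 57.4% of the control level, so more than 50% of the counted transcript remained, and gene counts do not show whether these reads cover the deleted part. Erythroid markers were present in all libraries, with 14 of 14 tested, none past the threshold in edgeR (3 at an unadjusted p below 0.05), and a summed level of 65955 to 84371 CPM in KO and 73326 to 89794 CPM in control libraries. Of the 14, 1 had a fold change above 1, the median log2 fold change was -0.11, and in 5 both KO libraries were below all controls. Over all genes tested, 6829 of 13000 had a fold change above 1, and in 19.3% both KO libraries were below all controls. An unadjusted p below 0.05 was found in edgeR for 23.8% of all genes tested, and 6.98% passed the threshold. The pair of KO libraries was less alike than any pair of controls, with a chi-square per degree of freedom of 17.7, against 4.30 to 6.35 between controls. Transcripts of 4 genes of the Y chromosome, Uty among them, had 147 to 454 counts in control replicate 3 and at most 2 counts in any other library, and Xist was at 547 CPM there, against 788 to 1026 CPM in the others. Control replicate 3 thus held Y-linked transcripts together with Xist, whereas the other libraries held Xist almost without them. The sex make-up of the libraries was therefore not the same, and its part in the comparison was not tested. Because the libraries differ in these ways, values without each library are given where they change a result. Macrophage markers were lower in KO libraries, with a summed level of 162 to 197 CPM against 227 to 259 CPM in controls and 5 of 13 tested past the threshold. Of 9 tested endothelial and stromal markers, Col1a1 and Col1a2 were called higher and none lower, but 5 had a fold change below 1 and the median log2 fold change was -0.04. Their summed level was 62.1 to 95.3 CPM in KO and 67.4 to 75.8 CPM in control libraries. Hepatocyte markers summed to 287 to 338 CPM in KO and 243 to 385 CPM in control libraries, with Cyp2e1 at 0 throughout. In bulk RNA, fewer cells of a type and less RNA per cell cannot be told apart.

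The chaperone and degradation genes of the ER showed little difference between KO and control cells. Of 31 members tested, 1 was higher in KO at an edgeR adjusted p below 0.05, none was lower, and 30 did not pass. Over all 13000 genes tested, 5.15% were called higher and 1.83% lower, 6.98% in all, so the share among members (1 of 31) did not exceed the background. DESeq2 and limma-voom likewise called 1 member. In edgeR, 4 of the 31 members had an unadjusted p below 0.05, beside 23.8% of all genes tested. The members' median log2 fold change was 0.06, beside 0.01 over all genes tested, and apart from Pdia5 their log2 fold changes ran from -0.18 for Edem3 to 0.27 for Ern1.

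The intervals say how large a difference these libraries could still hold. For 30 of the 31 members the unadjusted 95% interval of the fold change lay within 1.5-fold in both directions. The same held for 91.7% of all tested genes at 20 CPM or more in controls and for 29 of 29 members at that level. KO and control libraries did not overlap in 11 of 31 members, against 41.2% of all genes tested. KO was above in 8 of them, beside 21.9% of all genes, and below in 3, beside 19.3%. All 33 members together summed to 4190 and 4443 CPM in KO replicates 1 and 2 and to 4431, 4224 and 4325 CPM in control replicates 1, 2 and 3, so that the KO values bracketed the controls. The sum is weighted to abundant genes such as Calr, Canx and Hspa5, with control means of 693, 637 and 523 CPM. It says little of the less abundant members.

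**Figure D2:**
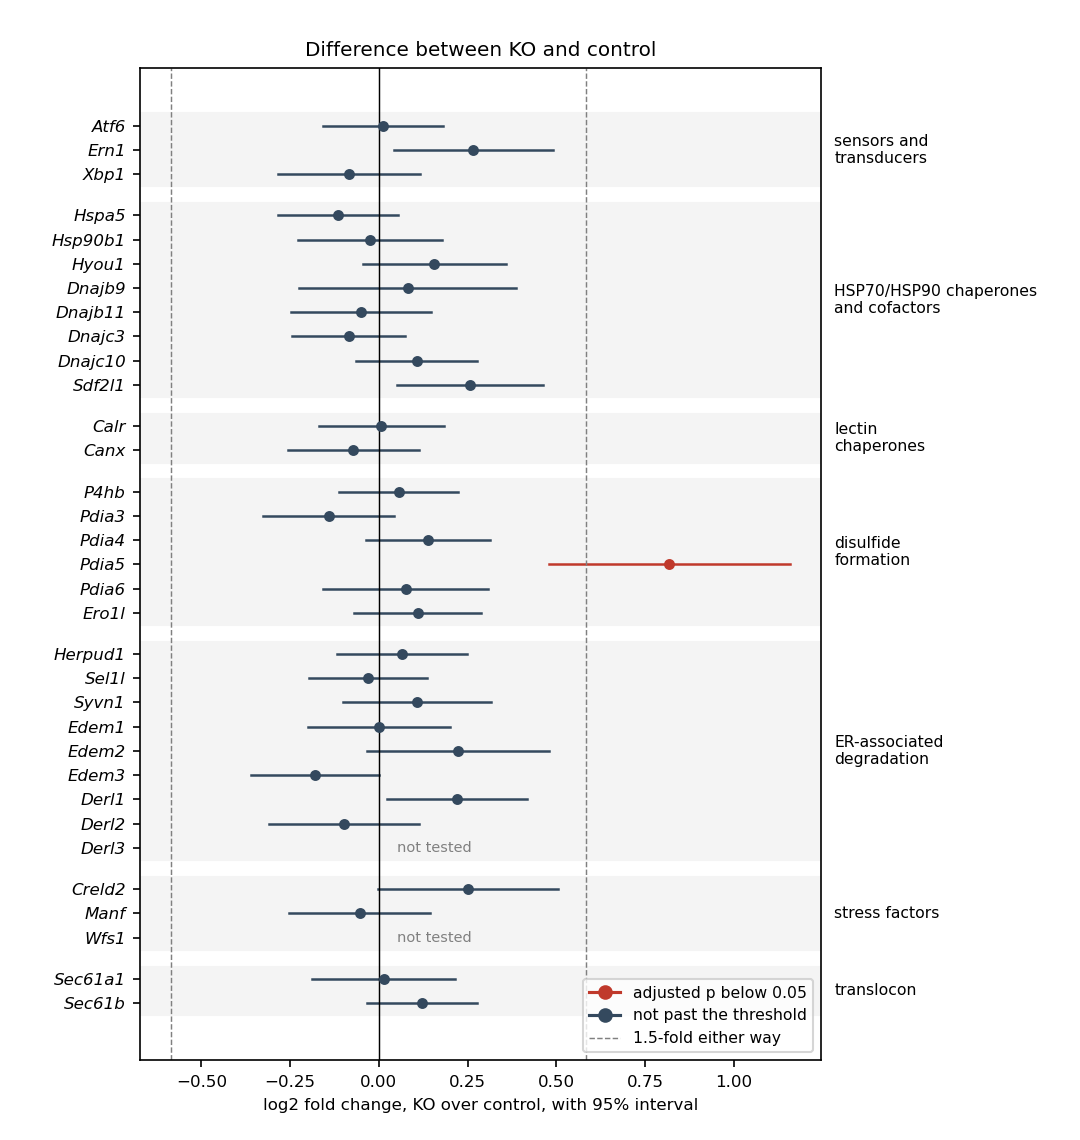
Log2 fold change of KO over control (x axis) for each member by role, with its unadjusted 95% interval from the edgeR fit; Derl3 and Wfs1 had too few counts to be tested. Pdia5 alone passed the threshold, and every other interval lies inside the dashed lines at 1.5-fold.

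Among the sensors and transducers, none of 3 passed. Atf6, which encodes the sensor cut in the Golgi, was at 124 and 110 CPM in KO replicates 1 and 2, against 114, 120 and 115 CPM in controls, and the groups overlapped. Its log2 fold change was 0.01 ± 0.08 (SE), with a 95% interval of -0.16 to 0.18 and an edgeR adjusted p of 0.947. Ern1, which encodes the kinase and RNase IRE1, was at 73.9 and 60.1 CPM in KO, against 53.7, 54.7 and 58.6 CPM in controls. Both KO libraries were above all controls, but the nearest KO and control libraries were close and the log2 fold change of 0.27 ± 0.10 (SE) did not pass (edgeR adjusted p = 0.141). Without KO replicate 2, Ern1 reached 0.41 with an edgeR adjusted p of 0.0228, in a fit that assumes the lone KO library varies like the controls. Without KO replicate 1 it was at 0.09 (edgeR adjusted p = 0.475), and without any 1 control it did not pass. Xbp1, whose mRNA IRE1 splices, was at 47.3 and 49.6 CPM in KO, against 55.5, 47.4 and 51.2 CPM in controls, with a log2 fold change of -0.08 ± 0.09 (SE, edgeR adjusted p = 0.607).

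The HSP70 and HSP90 chaperones and their cofactors had none of 8 past the threshold, with 4 fold changes above 1. Hspa5 (ENSMUSG00000026864, chr2:34771970-34777547, plus strand) encodes BiP, the main ER HSP70 and a usual readout of ER stress. It was at 476 and 489 CPM in KO replicates 1 and 2, against 541, 513 and 513 CPM in control replicates 1, 2 and 3. Both KO libraries lay below all controls, by a small margin. The log2 fold change was -0.12 ± 0.08 (SE, edgeR adjusted p = 0.389), and the 95% interval of the fold, KO over control, was 0.82 to 1.04. Across fits that each left out 1 library, the Hspa5 log2 fold change stayed between -0.14 and -0.09.

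Hsp90b1, which encodes the ER HSP90 called GRP94, was at 298 and 327 CPM in KO, against 343, 291 and 320 CPM in controls, and the groups overlapped. Hyou1, a large ER HSP70 that helps BiP exchange its nucleotide, was at 130 and 159 CPM in KO, against 129, 130 and 130 CPM in controls. Here 1 KO library matched the controls and the other stood above them, with a log2 fold change of 0.16 ± 0.09 (SE, edgeR adjusted p = 0.325). Sdf2l1, which works with the J-domain protein ERdj3, was at 26.2 and 29.6 CPM in KO, against 23.4, 23.2 and 23.6 CPM in controls. Its KO libraries were above all controls, and its log2 fold change of 0.26 ± 0.09 (SE) did not pass (edgeR adjusted p = 0.127). The J-domain cofactors of BiP were Dnajb9, Dnajb11, Dnajc3 and Dnajc10. Their log2 fold changes ran from -0.08 for Dnajc3 to 0.11 for Dnajc10, with edgeR adjusted p-values of 0.431 to 0.773. Dnajb9 (ERdj4), a common target of spliced XBP1, was the least abundant of them at 7.38 and 7.39 CPM in KO, against 7.40, 6.78 and 6.73 CPM in controls.

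The lectin chaperones hold newly made glycoproteins by their sugar chains. Calr, which encodes the soluble calreticulin, was at 693 and 700 CPM in KO replicates 1 and 2, against 719, 687 and 674 CPM in controls. The groups overlapped, and the 95% interval of its log2 fold change was -0.17 to 0.18. Canx, which encodes the membrane-bound calnexin, was at 579 and 633 CPM in KO, against 655, 613 and 644 CPM in controls, with a log2 fold change of -0.07 ± 0.08 (SE, edgeR adjusted p = 0.64). Neither passed, and the direction of Calr changed between fits.

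**Figure D3:**
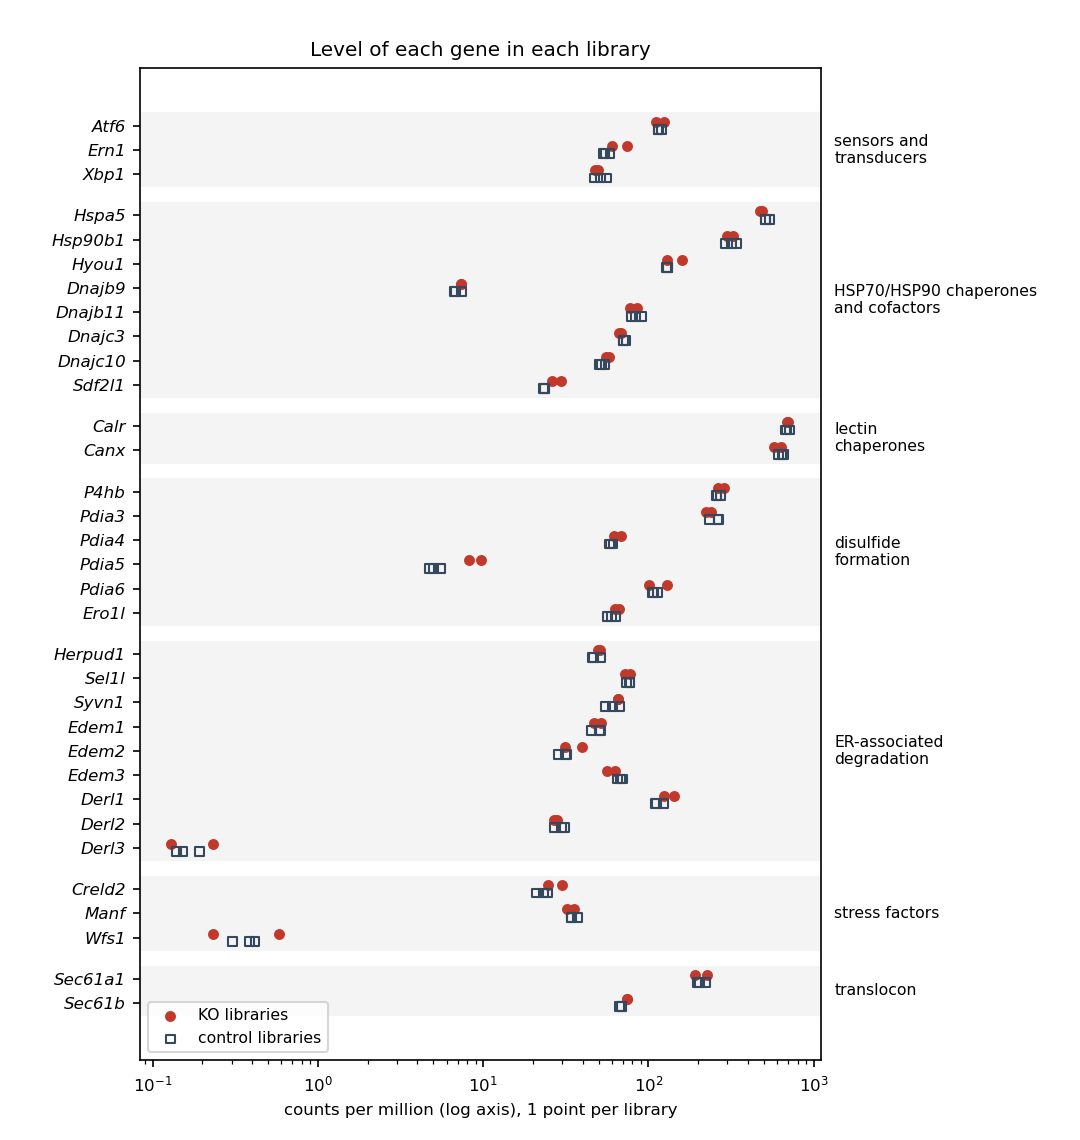
Level of each of the 33 genes in each library in CPM (log axis), with KO libraries as filled circles above control libraries as open squares, grouped by role. KO and control points of most genes lie on each other, those of Pdia5 are apart at 8.22 and 9.72 CPM in KO and 4.73 to 5.53 CPM in controls, and Derl3 and Wfs1 stand below 1 CPM.

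The disulfide-forming enzymes included the 1 member that passed. Pdia5 (ENSMUSG00000022844, chr16:35397312-35490873, minus strand) encodes a protein disulfide isomerase. It was at 8.22 and 9.72 CPM in KO replicates 1 and 2, against 5.53, 4.73 and 4.99 CPM in control replicates 1, 2 and 3. These values rest on 107 and 150 counts in KO and on 86, 62 and 72 counts in controls, and both KO libraries were clearly above all controls. Pdia5 was 1.76-fold higher in KO, with a log2 fold change of 0.82 ± 0.15 (SE, 95% interval 0.48 to 1.16, edgeR adjusted p = 0.0145). The direction was the same in every fit, from 0.68 to 0.91 when 1 library was left out. The call was lost without control replicate 1, 2 or 3 (edgeR adjusted p = 0.0555, 0.0749 and 0.0591), without KO replicate 2 (0.0662) and with no filter on low counts (0.0618). Per kilobase of exon Pdia5 had the lowest control level of the 31 tested members, at 3.24 CPM per kilobase in KO and 1.83 in controls. Macrophage markers summed to 162 to 197 CPM in KO and 227 to 259 CPM in control libraries. Megakaryocyte markers summed to 89.5 to 138 CPM in KO and 87.4 to 99.0 CPM in control libraries. Neutrophil and mast cell markers summed to 616 to 740 CPM in KO and 541 to 782 CPM in control libraries. The part of these or other cell types in the Pdia5 value was not tested.

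The other enzymes of this role did not pass. P4hb, which encodes the founding protein disulfide isomerase, was at 263 and 286 CPM in KO, against 274, 258 and 260 CPM in controls. Pdia3 (ERp57), the isomerase that works with calnexin and calreticulin, was at 224 and 239 CPM in KO, against 264, 235 and 267 CPM in controls, with a log2 fold change of -0.14 ± 0.08 (SE, edgeR adjusted p = 0.328). Pdia4 was at 62.2 and 68.2 CPM in KO, against 61.1, 58.8 and 57.8 CPM in controls, just apart. Pdia6, an isomerase that also binds IRE1, was at 101 and 129 CPM in KO, against 114, 108 and 106 CPM in controls, so that its KO libraries lay on either side of the controls. Ero1l, also called Ero1a, reoxidises the isomerases and had a log2 fold change of 0.11 ± 0.08 (SE, edgeR adjusted p = 0.437).

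ER-associated degradation returns misfolded proteins to the cytosol for the proteasome, and none of its 8 tested members passed. Derl1, a membrane channel component, was at 124 and 144 CPM in KO replicates 1 and 2, against 112, 123 and 110 CPM in controls, with a log2 fold change of 0.22 ± 0.09 (SE, edgeR adjusted p = 0.168). Edem2, a mannosidase that marks glycoproteins for disposal, was at 31.4 and 39.9 CPM in KO, against 28.6, 31.8 and 31.5 CPM in controls. Its relative Edem3 was at 62.9 and 56.4 CPM in KO, against 69.5, 65.1 and 68.0 CPM in controls, and had the most negative log2 fold change of the members at -0.18 ± 0.08 (SE, edgeR adjusted p = 0.212). Edem2 and Edem3 thus differed in sign, and Edem1 was at 51.8 and 46.7 CPM in KO, against 51.5, 45.5 and 50.6 CPM in controls.

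The ubiquitin ligase Syvn1 (HRD1) and its partner Sel1l had log2 fold changes of 0.11 ± 0.09 and -0.03 ± 0.07 (SE). Herpud1, a stress-induced scaffold of this ligase, was at 49.5 and 51.1 CPM in KO, against 46.1, 46.6 and 51.5 CPM in controls, and the groups overlapped. Derl2 had a log2 fold change of -0.10 ± 0.09 (SE, edgeR adjusted p = 0.568). Derl3, the derlin of secretory cells, had 3 and 2 counts in KO and 3, 2 and 2 counts in control libraries and was not tested. Exons of Syvn1, Derl2 and Manf share 91, 231 and 146 bases with Mrpl49, Mis12 and Dcaf1 on the opposite strand, and exons of Sec61a1 share 549 bases with the antisense gene Gm44170. Reads of those stretches cannot be assigned without knowing whether strand was used.

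The remaining members were grouped as secreted or membrane stress factors and as subunits of the protein-conducting channel. Creld2, a secreted ER stress protein, was at 24.6 and 29.8 CPM in KO, against 24.4, 21.1 and 23.1 CPM in controls, with a log2 fold change of 0.25 ± 0.11 (SE, edgeR adjusted p = 0.215). Manf, a secreted factor induced by ER stress, was at 32.3 and 35.3 CPM in KO, against 34.2, 37.3 and 34.0 CPM in controls. Wfs1, the ER membrane protein wolframin, had 3 and 9 counts in KO and 6, 4 and 6 counts in controls and was not tested. Sec61a1, the pore of the protein-conducting channel, was at 192 and 227 CPM in KO, against 199, 203 and 221 CPM in controls. Sec61b, its small beta subunit, was at 73.9 and 74.5 CPM in KO, against 68.4, 67.2 and 68.9 CPM in controls, which was apart but small in size (log2 fold change 0.12 ± 0.07, SE, edgeR adjusted p = 0.319).

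Per kilobase of exon, the order of the members ran from calreticulin down to the secretory-cell derlin. Calr was highest at 242 CPM per kilobase in KO and 241 in controls, above 99.0% of tested genes in controls. Canx followed at 129 in KO and 136 in controls, then Hspa5 at 114 in KO and 124 in controls and P4hb at 95.95 in KO and 92.35 in controls. These 4 did not overlap with their neighbours in the order across the control libraries, whereas Pdia3 and Hsp90b1, next in order, overlapped at 73.8 and 77.5 in KO and 81.4 and 78.8 in controls. The sensors stood lower, with Xbp1 at 14.9 in KO and 15.8 in controls, Atf6 at 12.7 in KO and 12.6 in controls, and Ern1 at 8.20 in KO and 6.81 in controls. In the middle of the order, Atf6, Syvn1, Ero1l, Edem3, Dnajc10 and Manf each overlapped with the next lower gene or with the gene above it. Wfs1 and Derl3 closed the order at 0.11 and 0.09 in KO and 0.10 and 0.08 in controls.

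The KO libraries did not place the members alike. In KO replicate 2 the level exceeded that in KO replicate 1 for 23 of 31 members (74.2%), against 50.6% of all genes tested and 45.8% of those at 20 CPM or more. This covered 6 of 6 disulfide-forming enzymes and 7 of 8 HSP70 and HSP90 genes, but 3 of 8 degradation genes and 1 of 3 sensors. The largest ratios of KO replicate 2 over KO replicate 1 were those of Pdia6, Edem2, Hyou1 and Creld2, at 0.36, 0.35, 0.29 and 0.28 on the log2 scale, and Ern1 ran the other way at -0.30. With KO replicate 1 left out, Creld2, Derl1, Edem2, Hyou1, Pdia5 and Sdf2l1 were called higher and Edem3 lower, which is 7 of 31 members (22.6%), beside 2956 of 13437 genes tested (22.0%), in a fit whose lone KO library is assumed to vary like the controls. Which of the KO libraries is the more typical cannot be told from a pair.

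**Figure D4:**
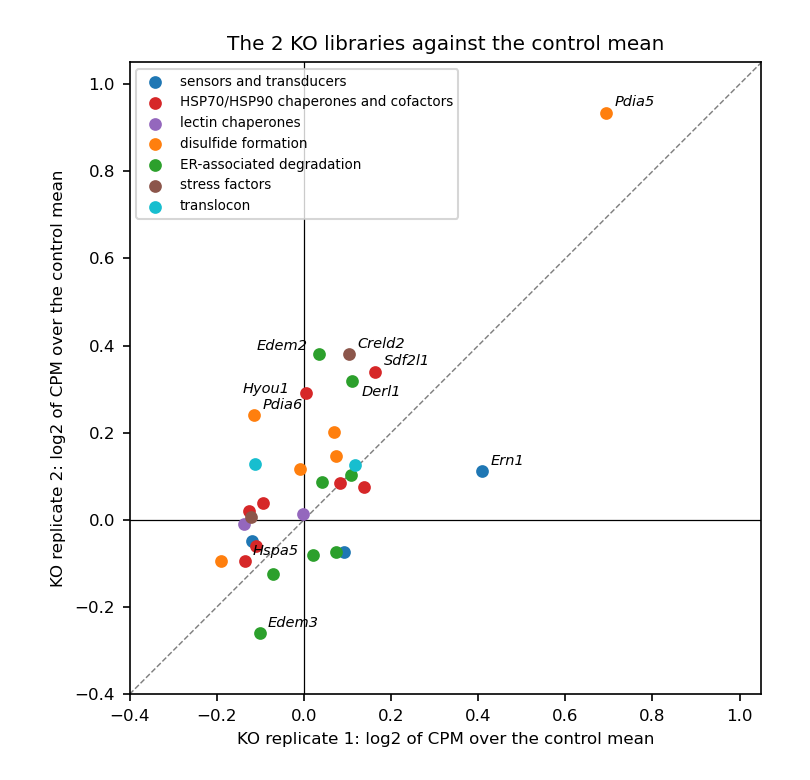
Level of each tested member in KO replicate 2 (y axis) against KO replicate 1 (x axis), each as log2 of CPM over the control mean; the dashed line marks equal values and colours mark roles. Pdia5 is high in both libraries, 23 of 31 points lie above the line, and Ern1 lies below it.

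The comparison was also read by promoter element. The 8 tested members with an ERSE had log2 fold changes of -0.12 to 0.25 with a median of -0.01, and none passed in edgeR. Among them Creld2 was at the upper end and Hspa5 at the lower. The 18 tested members with a window but no ERSE had a median of 0.07, and Pdia5 was the 1 past the threshold. Herpud1 and Dnajb11, with the ERSE-II, had log2 fold changes of 0.06 ± 0.08 and -0.05 ± 0.09 (SE).

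Other genes of the ER and of the PERK branch were taken from 8 further lists, named with earlier results of these data known. Among 13 genes of the PERK branch and the integrated stress response, 7 were called higher in KO and none lower. Over all genes tested, 5.15% were called higher and 1.83% lower. The median log2 fold change of this list was 0.49, beside 0.06 for the 31 members and 0.01 for all genes. The 7 include Atf3, at 1.54 and 1.49 CPM in KO, against 0.064, 0.076 and 0.35 CPM in controls, which passed the filter on low counts only through the KO libraries. Without it, a check added after seeing the data, 6 of 12 rose and the median was 0.39. Atf3 was not called with DESeq2. Trib3, a pseudokinase induced through ATF4, was at 49.04 and 83.3 CPM in KO replicates 1 and 2, against 3.86, 5.18 and 3.95 CPM in controls, with a log2 fold change of 3.94 ± 0.23 (SE, edgeR adjusted p = 4.9e-05). Cebpb, a transcription factor, was at 17.6 and 19.2 CPM in KO, against 8.43, 7.47 and 7.91 CPM in controls (edgeR adjusted p = 0.000927). Atf5, another factor of this response, was at 47.0 and 97.5 CPM in KO, against 10.7, 11.6 and 13.5 CPM in controls (edgeR adjusted p = 0.00126). In all 3 genes every KO library exceeded every control by a wide margin.

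A further 3 genes of this list, chosen after their values were seen, link the branch to the ER. Eif2ak3, which encodes PERK, was at 22.4 and 23.3 CPM in KO, against 23.5, 24.6 and 22.5 CPM in controls. Atf4 was at 619 and 604 CPM in KO, against 458, 502 and 532 CPM in controls, and did not pass in edgeR (adjusted p = 0.0726) but did in DESeq2 (0.0181). Ddit3, which encodes CHOP, was at 51.5 and 55.5 CPM in KO, against 38.2, 36.6 and 39.4 CPM in controls, with a log2 fold change of 0.49 ± 0.08 (SE, edgeR adjusted p = 0.00845), and missed the threshold without control replicate 1 or 2 (0.0521 and 0.0582) and with no filter on low counts (0.0507). The number of genes of this list called higher was 5, 6 and 7 without control replicates 1, 2 and 3. Over all genes tested, 230 of 12861, 210 of 12985 and 339 of 12891 were called higher in these fits. With no filter on low counts 4 genes of the list were called, Atf3, Atf5, Cebpb and Trib3, beside 288 of 21077 genes tested. Asns and Ppp1r15a, also named after their values were seen, had log2 fold changes of 0.07 ± 0.08 and -0.11 ± 0.11 (SE). Neither passed in edgeR with all libraries (adjusted p = 0.678 and 0.596). Ppp1r15a was at 631 and 484 CPM in KO replicates 1 and 2, against 585, 630 and 593 CPM in control replicates 1, 2 and 3. Its KO libraries thus lay on either side of the controls, and its fold change was below 1 without KO replicate 1 too. That fit rests on KO replicate 2 alone, which was below all controls.

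The 7 lists of ER genes had 3 calls among 158 different genes tested (1.9%), beside 6.98% of all genes tested. Of 30 other ER folding enzymes 1 rose, Fkbp2, a prolyl isomerase, at 22.9 and 27.9 CPM in KO, against 18.9, 17.4 and 19.1 CPM in controls (edgeR adjusted p = 0.0415). Of 33 genes of translocation, signal peptidase and glycan transfer 1 rose, Krtcap2, a subunit of the oligosaccharyltransferase, at 16.3 and 20.7 CPM in KO, against 12.6, 12.5 and 13.4 CPM in controls (edgeR adjusted p = 0.0404). Of 17 ER calcium genes 1 fell, Rcn1, a calcium-binding protein of the ER lumen, at 14.99 and 15.6 CPM in KO, against 21.7, 21.5 and 20.1 CPM in controls (edgeR adjusted p = 0.0255). Each of these 3 calls was lost in edgeR without any 1 control, and those of Fkbp2 and Krtcap2 also without KO replicate 2. The highest adjusted p-values in these edgeR fits were 0.177 for Fkbp2, 0.184 for Krtcap2 and 0.127 for Rcn1. All 3 were also lost with no filter on low counts (edgeR adjusted p = 0.142, 0.130 and 0.0762), and Fkbp2 with upper quartile scaling (0.0521). With DESeq2 the adjusted p-values were 0.0757 for Fkbp2, 0.0708 for Krtcap2 and 0.0556 for Rcn1.

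None of the other lists had a call in edgeR. They held 9 tested genes of other sensors and their processing, 29 of other degradation factors, 27 of the COPII coat and cargo export and 14 of ER-phagy and ER shape, with medians from -0.01 to 0.06 on the log2 scale, and 2, 6, 3 and 5 genes at an unadjusted p below 0.05, beside 23.8% of all genes tested. The most abundant of them, named by rule, were Rtcb, the ligase that joins spliced Xbp1, with a log2 fold change of 0.14 ± 0.07 (SE), and the ATF6 protease gene Mbtps1 with 0.01 ± 0.07. Bag6 of the degradation list had 0.16 ± 0.08, Sec24c and Lman2 of the export list 0.04 ± 0.07 and -0.03 ± 0.07, and Retreg2 and Sec62 of the ER-phagy list 0.04 ± 0.09 and -0.17 ± 0.07 (SE).

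**Figure D5:**
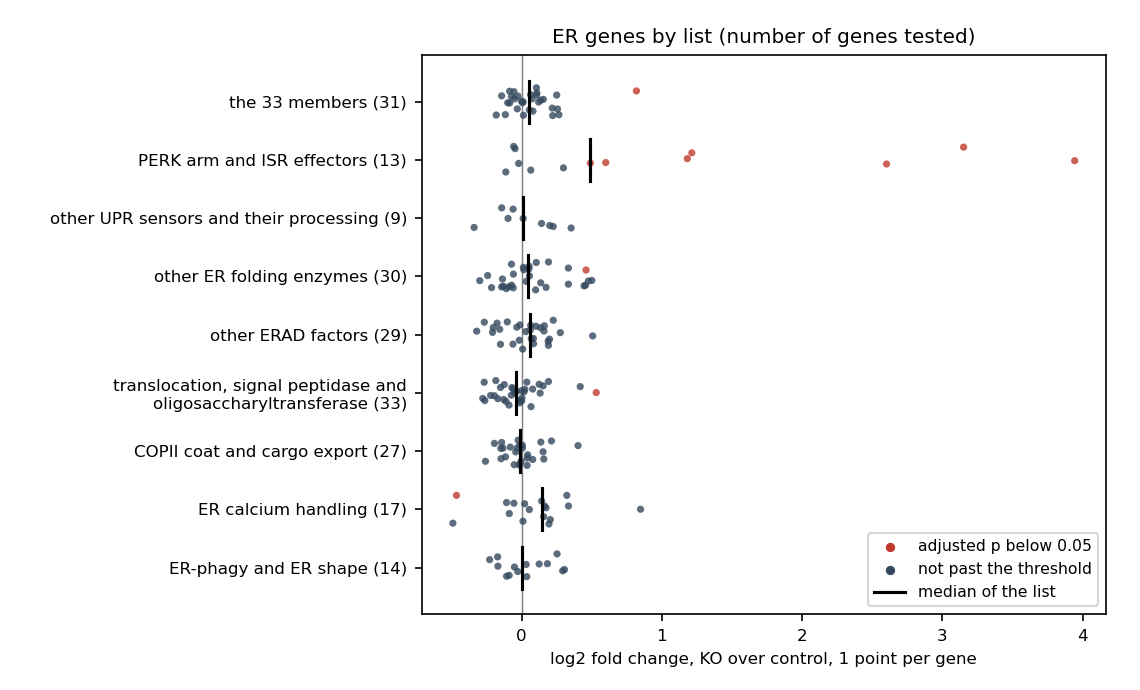
Log2 fold change of KO over control (x axis) for each tested gene of the 33 members and of 8 further lists, 1 point per gene, with the number tested in brackets and the median as a black line. The PERK and integrated stress response list spreads to 3.94 with 7 genes past the threshold, whereas the members gather near 0 with Pdia5 apart.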

How the data were processed

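The values the authors deposited are raw counts, whole numbers for each Ensembl gene in each library. The submitters' processing notes name cutadapt, STAR, Bowtie, HTSeq and mm10. Tool versions, settings and whether counting used strand were not given in the sources used here. Per the labels' protocols, mRNA was isolated from total RNA and sequenced on an Ion Proton. Symbols, exon lengths and positions came from GENCODE release M21 (GRCm38); 37607 of 39179 identifiers matched a symbol. Reads carry no molecular identifiers.

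KO was compared with control by edgeR 4.0.16 in R 4.3.3 (quasi-likelihood test, TMM scaling, filterByExpr, group as the only term), with Benjamini-Hochberg adjustment over the 13000 genes kept and a threshold of 0.05. CPM uses TMM-adjusted library sizes. Standard errors come from the fold change and F statistic, and 95% intervals from these and the fit's degrees of freedom. The steps were tested on simulated counts, where false calls exceeded the nominal share, most changes of the smallest size simulated were missed and nearly all of the largest were found. Calls near the threshold and genes that did not pass should be read with this in mind. Alternatives were RLE and upper quartile scaling, globin genes left out, DESeq2 1.42.0, limma-voom (limma 3.58.1), no filter, at least 5 CPM in 2 libraries, the replicate number as a block, and each library left out. The same alternatives for the PERK list and for Ddit3, Fkbp2, Krtcap2, Rcn1, Atf4, Trib3, Cebpb and Atf5 were chosen after seeing the data.

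The members, roles and lists were chosen with earlier results of these data known. Named genes are all members, Csnk2b, and per list the 3 smallest p past the threshold or else the 2 most abundant; exceptions are stated, and 1 gene that the rule names is not reported here. A planned search of proteins for ER retrieval signals was not run. ERSE sequences beyond Hspa5 and Pdia5 were added to those planned.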

Additional observations from a re-analysis of the deposited data

How the results depend on the processing

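With no filter on low counts, 288 genes were called, 235 higher and 53 lower in KO, and 0 members. With each library left out in turn, 241 to 2956 genes were called, 210 to 1709 higher and 31 to 1247 lower, and 0 to 7 members, 0 to 6 higher and 0 to 1 lower; the highest counts came without KO replicate 1. The members' median log2 fold change ran from 0.015 (without KO replicate 2) to 0.060 (without KO replicate 1) when 1 library was left out, and was 0.065 with no filter. DESeq2 called 858 genes, 517 higher and 341 lower, a more even split than 669 higher and 238 lower in edgeR. Every other alternative called Pdia5 and no further member, and Csnk2b passed in all, from -0.94 to -0.70 when 1 library was left out. Of 403 values for members under an alternative, 360 kept direction and call, 5 lost a call, all of Pdia5, 7 gained one and 31 turned direction. The last were small. Calr was at -0.0036 with RLE, -0.010 with upper quartile scaling, -0.0094 without globin genes, -0.0064 with DESeq2, -0.00059 with the stricter filter and -0.013 with the replicate block. Atf6 was at -0.0049 with upper quartile scaling, -0.0036 without globin genes and -0.0012 with DESeq2, and Sec61a1 at -0.0018 and -0.0029 with the first 2 of these. Edem1 was at 0.024 with the replicate block. With 1 library left out the ranges were -0.014 to 0.033 for Calr, -0.094 to 0.088 for Atf6, -0.12 to 0.11 for Sec61a1, -0.098 to 0.068 for Edem1, -0.098 to 0.032 for Hsp90b1, -0.00052 to 0.27 for Hyou1, -0.13 to 0.0069 for Dnajb11, -0.013 to 0.094 for P4hb, -0.12 to 0.22 for Pdia6 and -0.10 to 0.015 for Sel1l. The cause of these changes was not tested.

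The titles name no pairs, and the replicate numbers were not taken as pairs. Deviations of same-numbered KO and control libraries from their group means had correlations of 0.002 and 0.042. The deviations of the 2 KO libraries mirror each other, so these values rest on 1 contrast and cannot decide on pairing. With the replicate block, 873 genes were called, 702 higher and 171 lower, and Pdia5 was at 0.80. Genes at a few CPM, such as Pdia5 and Dnajb9, rest on about 100 counts a library, and Derl3 and Wfs1 could not be compared at this depth.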

Other observations

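The ERSE was also found in the promoter windows of 5 tested genes that are not members, Acacb, Adcy3, Alg12, Hnrnpa3 and Pan2, named after their values were seen. Their log2 fold changes ran from -0.21 for Hnrnpa3 to 1.017 for Adcy3. Adcy3, an adenylyl cyclase gene, was the 1 past the threshold (edgeR adjusted p = 0.0357), beside 6.98% of all genes tested. Whether the Adcy3 call holds under the alternatives was not examined. Alg12, a mannosyltransferase that builds the glycan precursor in the ER, was at -0.09 (edgeR adjusted p = 0.727).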
